A study of Arabidopsis thaliana with 12 samples.

Results

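A set of 10 genes of the plant cold response, 3 CBF transcription factors and 7 cold-regulated genes, was followed in a dcl1 mutant and in wild-type Arabidopsis thaliana. They were chosen by locus: CBF1, CBF2, CBF3, COR15A, COR15B, COR47, KIN1, KIN2, LTI78 (also called RD29A) and GolS3. All 10 were present among the 24730 genes of the deposited expression table. Both genotypes were in the Col-0 ecotype, and the gene affected in the mutant, DCL1, codes for the nuclear RNase that releases mature microRNAs from longer precursors. The labels do not name the dcl1 allele. RNA-seq of input poly(A) RNA and m6A immunoprecipitation (MeRIP-seq) were made from 3 dcl1 and 3 wild-type (WT) replicates each, 12 libraries in all, stated to be biological replicates. The labels give leaf tissue and an age of 20 days, whereas the protocol speaks of seedlings. All plants were grown at 23 °C ± 2 °C with 16 h of light and 8 h of dark and received no cold treatment, so every value below is a level at normal growth temperature. The time of day at harvest was not given in the sources used here.

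Cold acclimation in Arabidopsis runs through the CBF factors, AP2/ERF-family activators also known as DREB1 proteins. Their genes are nearly silent in warm plants, are induced within minutes to hours of chilling, and are also gated by the circadian clock and by mechanical and other stress. The CBF proteins bind C-repeat/DRE elements and switch on the COR, KIN and LTI genes, whose hydrophilic products protect membranes and proteins during freezing. Several of these target genes also respond to abscisic acid (ABA) and drought through other factors.

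DCL1 itself had 0.604, 0.406 and 0.632 FPKM in dcl1 replicates 1, 2 and 3 against 5.08, 4.53 and 6.0 FPKM in WT replicates 1, 2 and 3 (log2 change -2.0, SE 0.12, limma adjusted p = 0.00011). FPKM are fragments scaled by gene length and library size, so levels of different genes can be compared. The 4 leaf markers summed to between 35055 and 37778 FPKM in dcl1 and between 33885 and 38682 FPKM in WT. The root markers IRT1, CASP1 and PLT2 summed to at most 0.739 FPKM in dcl1 and 0.501 FPKM in WT. The 4 seed markers, storage proteins and an oleosin, summed to between 0.159 and 1.19 FPKM in dcl1 and between 0.105 and 0.193 FPKM in WT. Differences were tested with limma on log2(FPKM + 1) across the 17925 genes whose mean over the 6 libraries reached 1 FPKM, and a gene was called at an adjusted p-value under 0.05. Of all genes tested, 30.6% were called, 17.8% as higher in dcl1 and 12.8% as lower. In bulk RNA, a change in the number of cells that express a gene and a change in RNA per cell cannot be told apart.

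Of the 10 genes, 7 were higher in dcl1, namely all 3 CBF genes, COR15A, COR15B, KIN1 and KIN2. LTI78 and GolS3 were lower, and COR47 was not called. All 10 passed the minimum of 1 FPKM over the 6 libraries, but CBF1 and CBF3 averaged under 1 FPKM in WT and GolS3 did so in dcl1, so these 3 reached the test through the genotype in which they were high. Of the 7 genes that averaged at least 1 FPKM in both genotypes, 5 were higher, 1 was lower and 1 was not called. For 9 of the 10 genes every dcl1 library lay on one side of every WT library, as was so for 48.4% of all genes tested. Calls of at least 2-fold on the log2(FPKM + 1) scale, in either direction, were made for 8 of the 10 genes and for 5.4% of all genes tested.

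**Figure D1:**
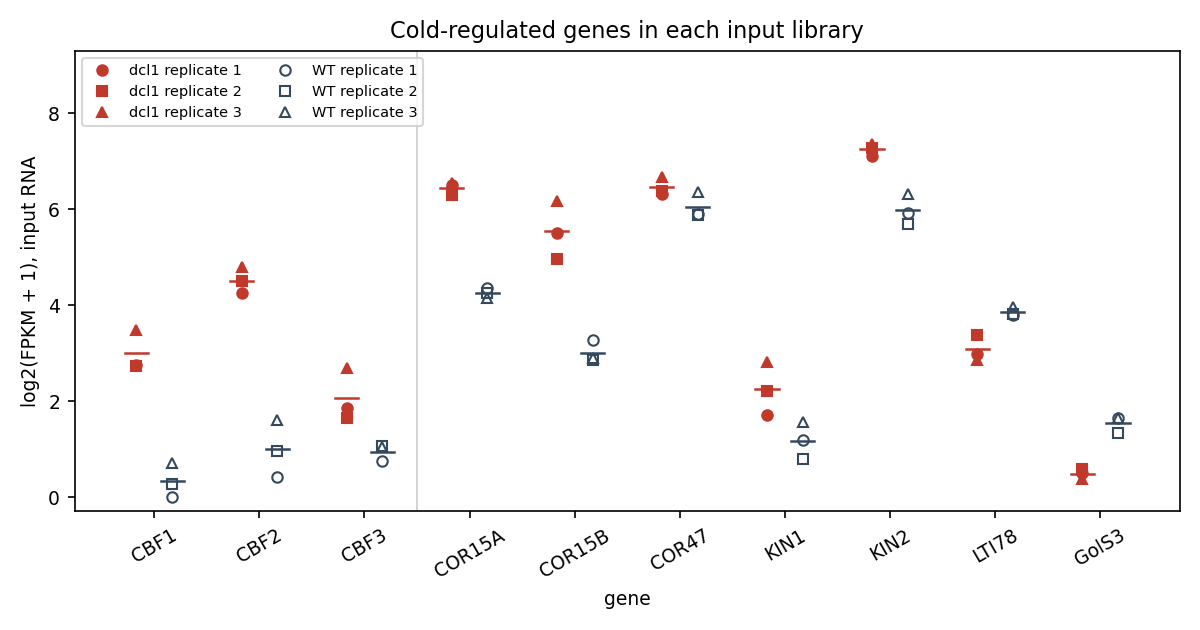
Levels of the 10 genes in the input libraries, as log2(FPKM + 1), with dcl1 in filled red and WT in open dark symbols; symbol shape gives the replicate and short lines give the means of 3 libraries. CBF1, CBF2, CBF3, COR15A, COR15B, KIN1 and KIN2 lay higher in every dcl1 library, LTI78 and GolS3 lay lower, and the COR47 groups overlapped.

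CBF1 and CBF2 had the largest fold rises among the 10 genes, and CBF3 a smaller one. CBF2 (AT4G25470, TAIR10 chromosome 4, 13015277 to 13016220, minus strand) had 18.0, 21.6 and 26.6 FPKM in dcl1 replicates 1, 2 and 3, against 0.337, 0.934 and 2.06 FPKM in the WT replicates. The lowest dcl1 library was thus well above the highest WT library, which was replicate 3. CBF2 rose by 3.51 on the log2(FPKM + 1) scale (SE 0.29, 95% interval 2.85 to 4.18, limma adjusted p = 0.0003). CBF1 (AT4G25490, chromosome 4, 13021780 to 13022725, minus strand) had 5.76, 5.66 and 10.2 FPKM in dcl1, against a listed 0, 0.213 and 0.636 FPKM in WT. The groups did not overlap, and dcl1 replicate 3 stood above the other mutant libraries. CBF1 rose by 2.66 (SE 0.25, 95% interval 2.08 to 3.25, limma adjusted p = 0.00054). CBF3 (AT4G25480, chromosome 4, 13018214 to 13019121, minus strand) had 2.61, 2.15 and 5.49 FPKM in dcl1, against 0.68, 1.08 and 1.05 FPKM in WT. It too was highest in dcl1 replicate 3 and did not overlap between genotypes. CBF3 rose by 1.12 (SE 0.26, 95% interval 0.52 to 1.73, limma adjusted p = 0.017), and this call was lost without WT replicate 1 (adjusted p = 0.0612) or WT replicate 2 (0.0507). Because a pseudocount of 1 FPKM was added, these values understate the ratio of the means. That ratio was 25.4 for CBF1, 19.9 for CBF2 and 3.66 for CBF3 in the authors' deposited table. For CBF1 it divides by a WT mean of only 0.283 FPKM and is therefore imprecise. Which of CBF1 and CBF2 rose more depended on the pseudocount (4.63 and 4.46 at 0.1 FPKM).

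The 3 CBF genes lie side by side on one strand within 7449 bases, with no other gene of the expression table between them. Summed over the array, CBF transcripts reached 26.3, 29.4 and 42.2 FPKM in dcl1 replicates 1, 2 and 3, against 1.02, 2.22 and 3.74 FPKM in the WT replicates. CBF2 made up 68.2%, 73.4% and 62.9% of that sum in the dcl1 libraries and 33.1%, 42.0% and 55.0% in the WT libraries. CBF3, in contrast, made up 9.93%, 7.34% and 13.0% in dcl1 and 66.9%, 48.4% and 28.0% in WT. CBF3 was therefore the most abundant of the 3 in WT replicates 1 and 2. CBF2 was the most abundant in WT replicate 3 and in every dcl1 library. In WT replicates 1 and 2, CBF3 had 0.68 and 1.08 FPKM against 0.337 and 0.934 FPKM for CBF2. The WT shares thus rest on very low levels and are less certain than those in dcl1. The difference CBF2 minus CBF3 in log2(FPKM + 1) averaged 2.44 in dcl1 and 0.05 in WT, and that of CBF2 minus CBF1 averaged 1.52 in dcl1 and 0.66 in WT. On that scale the genotypes did not overlap for either pair, and the exact permutation test gave a two-sided p = 0.1, the smallest that 3 against 3 libraries allow (p = 0.2 adjusted over 4 paralog pairs). Without the added 1 FPKM, the ratio of CBF2 to CBF1 was 3.12, 3.81 and 2.61 in dcl1 replicates 1, 2 and 3, against 4.39 and 3.23 in WT replicates 2 and 3 (CBF1 was listed at 0 in WT replicate 1), so these ratios overlapped and were not higher in dcl1. The 3 genes are close paralogs, and how fragments shared between them were assigned was not stated, so the split among them is less certain than their sum.

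COR15A and COR15B encode cryoprotective proteins of the chloroplast stroma and are neighbours within 3295 bases of chromosome 2. COR15A (AT2G42540, 17711032 to 17712330, minus strand) had 89.6, 77.7 and 91.7 FPKM in dcl1, against 19.5, 18.0 and 16.7 FPKM in WT. The libraries within each genotype lay close together, and COR15A had the smallest adjusted p of the 10 genes. Its mean was 86.3 ± 7.57 FPKM in dcl1 and 18.1 ± 1.4 FPKM in WT (SD, n = 3 each), 4.78-fold higher in dcl1 (log2 2.19, SE 0.09, limma adjusted p = 2e-05). COR15B (AT2G42530, 17709036 to 17709945, minus strand) had 44.0, 30.1 and 71.2 FPKM in dcl1, against 8.62, 6.22 and 6.44 FPKM in WT. Its dcl1 libraries were more spread than those of COR15A, with replicate 3 highest, yet all lay above WT. COR15B averaged 48.4 ± 20.9 FPKM in dcl1 and 7.09 ± 1.32 FPKM in WT (SD, n = 3 each), 6.83-fold higher in dcl1 (log2 2.54, SE 0.28, limma adjusted p = 0.001). COR15A was above COR15B in each of the 6 libraries, and the difference COR15B minus COR15A in log2(FPKM + 1) averaged -0.9 in dcl1 and -1.25 in WT, with overlapping groups (exact permutation p = 0.4, 0.533 adjusted over the 4 pairs). The assignment of any fragments shared between these paralogs was not stated either.

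KIN1 and KIN2 encode very small hydrophilic cold-induced proteins and lie within 2768 bases of chromosome 5 on the plus strand. KIN2 (AT5G15970, 5211911 to 5212665, also COR6.6) had 137, 154 and 162 FPKM in dcl1, against 59.4, 50.6 and 78.9 FPKM in WT. It was the most abundant of the 10 transcripts in dcl1, and its groups did not overlap. KIN2 averaged 151 ± 12.5 FPKM in dcl1 and 63.0 ± 14.5 FPKM in WT (SD, n = 3 each), 2.39-fold higher in dcl1 (log2 1.27, SE 0.15, limma adjusted p = 0.0014). KIN1 (AT5G15960, 5209898 to 5210727) had 2.27, 3.64 and 6.05 FPKM in dcl1, against 1.27, 0.731 and 1.95 FPKM in WT. The lowest dcl1 library was only slightly above the highest WT library. KIN1 rose by 1.07 (SE 0.3, limma adjusted p = 0.032), a call lost without any 1 of 4 libraries: adjusted p was 0.073 without dcl1 replicate 2, 0.0745 without dcl1 replicate 3, 0.0851 without WT replicate 1 and 0.108 without WT replicate 2. KIN2 was between 26.7 and 60.3 times as abundant as KIN1 in dcl1 and between 40.5 and 69.3 times in WT, and the log2 difference between these paralogs did not part the genotypes (exact permutation p = 0.6, also 0.6 adjusted over the 4 pairs). As for the CBF genes, how any fragments shared between KIN1 and KIN2 were assigned was not stated, so their split is less certain.

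COR47 (AT1G20440, chromosome 1, 7084409 to 7085772, minus strand), an acidic dehydrin, had 78.2, 82.7 and 101 FPKM in dcl1, against 58.8, 57.9 and 80.4 FPKM in WT. WT replicate 3 lay above dcl1 replicate 1, so the groups overlapped. The change was 0.41 on the log2 scale (SE 0.15, 95% interval 0.07 to 0.76, limma adjusted p = 0.071). It passed when WT replicate 3 was left out (0.56, adjusted p = 0.012). The next gene on the chromosome, ERD10 (AT1G20450), encodes another acidic dehydrin and was higher in dcl1, at 137, 163 and 189 FPKM against 83.3, 87.3 and 91.4 FPKM in WT (log2 0.88, SE 0.11, limma adjusted p = 0.0019).

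LTI78 and GolS3 went the other way. LTI78 (AT5G52310, chromosome 5, 21240849 to 21243613, plus strand), a hydrophilic protein gene induced by cold, drought and ABA, had 6.94, 9.45 and 6.27 FPKM in dcl1, against 12.9, 13.1 and 14.5 FPKM in WT. All dcl1 libraries lay below all WT libraries. The mean was 7.56 ± 1.67 FPKM in dcl1 and 13.5 ± 0.899 FPKM in WT (SD, n = 3 each), 1.78-fold lower in dcl1 (log2 -0.78, SE 0.14, limma adjusted p = 0.0062). GolS3 (AT1G09350, chromosome 1, 3019819 to 3021441, plus strand), a galactinol synthase at the entry to raffinose synthesis, had 0.418, 0.496 and 0.307 FPKM in dcl1, against 2.14, 1.51 and 2.12 FPKM in WT. It was weakly expressed in both genotypes and did not overlap between them. GolS3 averaged 0.407 ± 0.095 FPKM in dcl1 and 1.92 ± 0.36 FPKM in WT (SD, n = 3 each), 4.73-fold lower in dcl1 (log2 -1.05, SE 0.13, limma adjusted p = 0.0017).

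**Figure D2:**
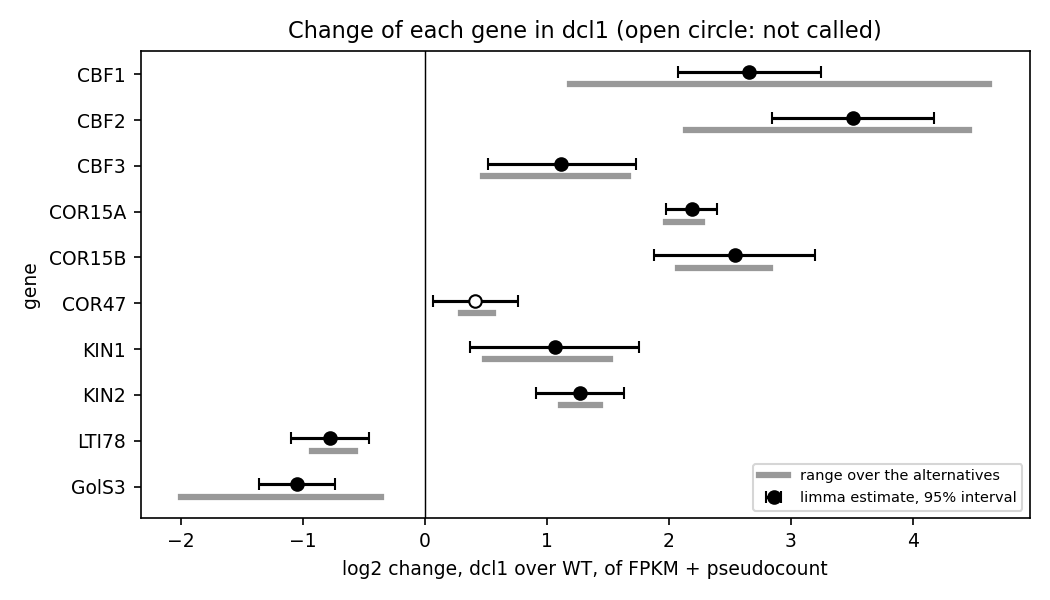
Change of each gene in dcl1 over WT on the log2 scale, with the limma estimate and its 95% interval as circles and bars (filled where called) and, as grey bars, the range of the estimate over the alternative settings. No estimate changed sign under any setting; the widest ranges, those of CBF1 (1.19 to 4.63), CBF2 (2.14 to 4.46) and GolS3 (-2.0 to -0.36), come from genes with low FPKM in at least 1 genotype.

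The order of levels differed between genotypes. In dcl1, KIN2 (mean 151 FPKM) stood above COR47 (87.3) and COR15A (86.3), whose libraries overlapped, and these were followed by COR15B (48.4) and CBF2 (22.0), each without overlap with its neighbour. LTI78 (7.56), CBF1 (7.2), KIN1 (3.99) and CBF3 (3.42) followed, each overlapping the next in this group. GolS3 (0.407) was lowest, without overlap with CBF3. In WT, COR47 (65.7) and KIN2 (63.0) led and overlapped. COR15A (18.1), LTI78 (13.5) and COR15B (7.09) came next without overlap. GolS3 (1.92), KIN1 (1.32), CBF2 (1.11) and CBF3 (0.934) followed, each overlapping the next in this group. CBF1 was lowest, without overlap with CBF3.

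In the authors' deposited table, 8 of the 10 genes were marked as significant, where 6.75% of all genes were. The marked genes of that table all had a p-value of at most 0.0483 and at least a 2-fold change. LTI78 (fold 0.56, q = 2.9e-07) and COR47 (fold 1.33, q = 0.036) were not marked in the authors' deposited table, both with folds below that size.

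The replicates varied in a way shared by several of these genes. All 8 genes with a positive change, COR47 included, had their highest dcl1 value in replicate 3, which was the highest dcl1 library for 35.3% of all genes tested. Relative to the mean of dcl1 replicates 1 and 2 on the log2(FPKM + 1) scale, dcl1 replicate 3 was higher by 0.95 for COR15B, 0.94 for CBF3, 0.85 for KIN1 and 0.73 for CBF1, but by 0.13 for COR15A. Several genes of the circadian clock, described here after their values were seen, also differed in that library. LHY had 30.5, 42.1 and 12.7 FPKM in dcl1 replicates 1, 2 and 3, against 25.1, 25.5 and 29.1 FPKM in WT. CCA1 had 55.3, 59.0 and 30.3 FPKM in dcl1, against 59.3, 55.7 and 49.5 FPKM in WT. These morning-phased MYB factors, known to activate CBF genes, were thus lowest in dcl1 replicate 3. PRR7, a repressor of CBF genes, had 44.2, 35.0 and 60.2 FPKM in dcl1, against 40.9, 36.8 and 38.3 FPKM in WT. PRR9, its morning-phased relative, had 16.3, 12.8 and 17.7 FPKM in dcl1, against 38.7, 32.9 and 16.1 FPKM in WT, and thus differed in WT replicate 3 and hardly in dcl1 replicate 3. The clock-controlled RNA-binding protein gene GRP7, from the list of other cold-induced genes, had 56.9, 32.3 and 164 FPKM in dcl1, against 50.3, 38.5 and 46.7 FPKM in WT. The part of this clock difference in the cold genes' levels was not tested. Without dcl1 replicate 3 the calls for CBF1, CBF2, CBF3, COR15A, COR15B and KIN2 held, with log2 changes of 2.42, 3.38, 0.81, 2.15, 2.22 and 1.22, and the call for KIN1 did not.

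WT replicate 3 was the highest WT library for 5 of the 8 genes with a positive change, a share near that of all genes tested (54.5%). Relative to the mean of WT replicates 1 and 2, it was higher by 0.93 for CBF2, by 0.57 for CBF1 and KIN1, by 0.52 for KIN2 and by 0.46 for COR47, whereas COR15A and COR15B were each lower by 0.16 (difference -0.16). LTI78 and GolS3, both lower in dcl1, were each higher by 0.15 in that library. Without WT replicate 3 and dcl1 replicate 3 together, a setting chosen after seeing the data, 8 of the 10 genes were called higher in dcl1 and 2 lower. Of all 17847 genes tested in that setting, 3068 were called higher and 1819 lower.

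**Figure D3:**
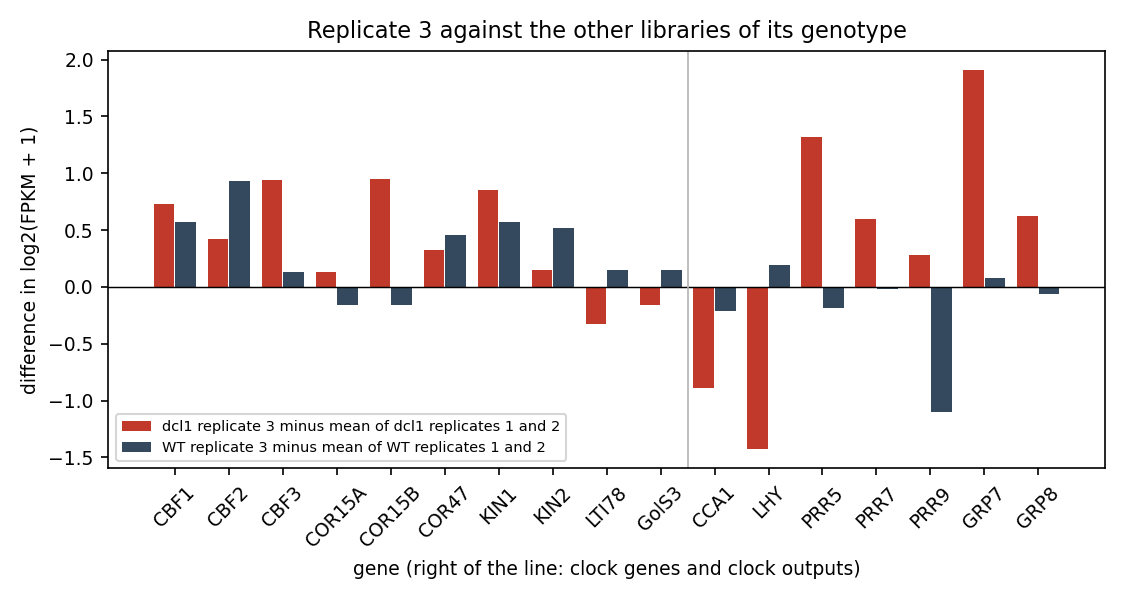
Difference in log2(FPKM + 1) between replicate 3 and the mean of replicates 1 and 2 of the same genotype, for dcl1 (red, left bar) and WT (dark, right bar). In dcl1 the difference was positive for the 8 genes from CBF1 to KIN2 and negative for LTI78 (-0.33) and GolS3 (-0.16). Among clock genes it was -1.43 for LHY, -0.89 for CCA1, 1.32 for PRR5, 0.6 for PRR7 and 0.28 for PRR9. For the clock outputs GRP7 and GRP8 it was 1.91 and 0.62.

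Of 20 genes known to act on CBF transcription, 19 were tested. In dcl1, 6 of them were higher (31.6%), 1 was lower (5.26%) and 12 were not called. Over all genes tested the shares were 17.8% higher and 12.8% lower. Their median log2 change was 0.16, beside 0.03 over all genes tested. The smallest of the rises lost their calls when single libraries were left out. MYB15 (AT3G23250), a repressor of CBF genes that is itself induced by cold and other stress, had 17.6, 27.6 and 37.8 FPKM in dcl1, against 0.8, 0.848 and 1.26 FPKM in WT. Its groups were far apart (log2 3.81, SE 0.25, limma adjusted p = 0.00013), while the other calls on this list were smaller than 1 in size. MYB15 averaged 0.968 FPKM in WT and so, like CBF1 and CBF3, was tested through the mutant libraries. SOC1, a flowering activator that represses CBF genes, rose by 0.59 (adjusted p = 0.0064 by limma) and BZR1, a brassinosteroid factor that activates them, by 0.5 (0.003). PHYB, the red-light receptor upstream of the PIF repressors, had 11.8, 12.3 and 11.4 FPKM in dcl1, against 33.0, 26.8 and 15.3 FPKM in WT (log2 -0.96, limma adjusted p = 0.023). Its call was lost without any 1 library but WT replicate 3 (adjusted p from 0.0533 to 0.0849). ICE1, the bHLH activator for which the pathway is best known, changed by 0.1 (95% interval -0.08 to 0.27, limma adjusted p = 0.36), and its paralog ICE2 rose by 0.48 (0.0033).

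Factors that are induced early in the cold beside the CBFs were higher in the mutant. Of 12, all tested, 10 were higher (83.3%), 1 was lower (8.33%) and 1 was not called, with a median log2 change of 2.77. Over all genes tested the shares were 17.8% and 12.8%. The zinc finger gene ZAT12 (AT5G59820) had 84.9, 116 and 124 FPKM in dcl1, against 1.69, 2.56 and 7.41 FPKM in WT (log2 4.65, SE 0.39, limma adjusted p = 0.00033). ZAT10 (AT1G27730) rose by 3.9, and ZAT6 (AT5G04340) and MYB73 (AT4G37260) each by 3.14 (limma adjusted p of 0.00082, 0.00014 and 0.00074). WT replicate 3 was the highest WT library for each of these 4 genes, as it was for 54.5% of all genes tested. That library was also the highest for CRF2 and RVE2. CRF2 (AT4G23750), a cytokinin response factor, fell by 0.59 (log2 -0.59, limma adjusted p = 0.01). RVE2 was the gene not called (log2 -0.12, limma adjusted p = 0.63).

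Relatives of the CBF genes were at or near 0 in WT. DDF1 (AT1G12610) had 6.77, 16.0 and 23.7 FPKM in dcl1, against 0.14, 0.334 and 0.301 FPKM in WT (log2 3.56, limma adjusted p = 0.00081). DREB2A (AT5G05410), a DREB factor of drought and heat, had 15.8, 12.3 and 38.9 FPKM in dcl1, against 0.549, 0.521 and 0.445 FPKM in WT (log2 3.78, limma adjusted p = 0.00056). The other 3 were under the minimum and not tested. Among them, CBF4 had 0.764, 0.936 and 2.07 FPKM and DDF2 had 0.806, 1.41 and 1.83 FPKM in dcl1, and both were listed at 0 in every WT library. Both tested relatives, like CBF1 and CBF3, averaged under 1 FPKM in WT and were tested through the mutant libraries.

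Other cold-induced genes moved in both directions. Of 24, 21 were tested, of which 7 were higher in dcl1 (33.3%), 3 were lower (14.3%) and 11 were not called. Over all genes tested the shares were 17.8% and 12.8%. The median log2 change of the list was 0.03, the same as over all genes tested. ERD7 (AT2G17840), a dehydration and cold induced gene, had 29.2, 38.0 and 86.1 FPKM in dcl1, against between 8.67 and 11.3 FPKM in the 3 WT libraries (log2 2.1, limma adjusted p = 0.005). P5CS1 (AT2G39800), which makes proline, rose by 1.68 (limma adjusted p = 0.00013) and the dehydrin gene LTI30 (AT3G50970) by 1.39 (0.0018). Of the acidic dehydrin genes COR47, ERD10 and ERD14, the last rose by 0.64 (limma adjusted p = 0.013), and its call was lost without WT replicate 1 (0.0515) or WT replicate 2 (0.0564). RCI2B (AT3G05890), a small membrane protein, had 4.49, 2.07 and 2.76 FPKM in dcl1, against 10.7, 9.17 and 8.76 FPKM in WT (log2 -1.4, limma adjusted p = 0.0028). BAM3 (AT4G17090), a chloroplast beta-amylase, changed by -0.74 (limma adjusted p = 0.033), a call lost without dcl1 replicate 1 (0.0902), dcl1 replicate 3 (0.0866), WT replicate 1 (0.105) or WT replicate 2 (0.114).

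**Figure D4:**
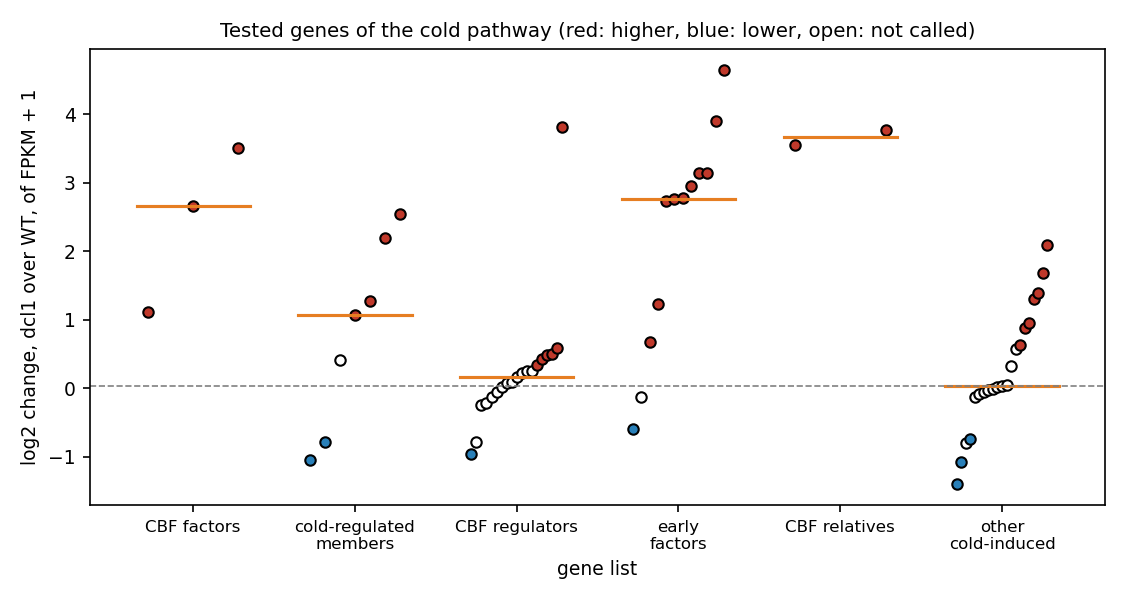
log2 change of FPKM + 1 in dcl1 over WT for each tested gene of 6 lists, with calls higher in dcl1 in red, calls lower in blue and uncalled genes open; orange lines are list medians and the dashed line is the median of all genes tested (0.03). List medians were 2.66 for the CBF factors (3 genes tested), 1.07 for the cold-regulated members (7) and 0.16 for CBF regulators (19). They were 2.77 for early factors (12), 3.67 for CBF relatives (2) and 0.03 for other cold-induced genes (21). CBF1, CBF3, MYB15 and both tested CBF relatives averaged under 1 FPKM in WT. They were tested through the dcl1 libraries, so a rise was favoured among them. GolS3 averaged under 1 FPKM in dcl1 and was tested through the WT libraries.

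Of 3 other listed genes of raffinose synthesis, 1 was called, RS5. RS5 (AT5G40390), a raffinose synthase that uses galactinol, had 4.18, 4.86 and 3.24 FPKM in dcl1, against 9.36, 10.3 and 9.15 FPKM in WT (log2 -1.07, SE 0.13, limma adjusted p = 0.0012). The galactinol synthase GolS2 had 2.96, 3.17 and 2.3 FPKM in dcl1, against 8.02, 7.31 and 2.81 FPKM in WT, and was not called (log2 -0.8, limma adjusted p = 0.089). WT replicate 3 overlapped the mutant there, and without it GolS2 passed (-1.19, adjusted p = 0.00125). Among GolS1, GolS2 and GolS3, GolS1 was the most abundant, at 18.9, 23.2 and 17.5 FPKM in dcl1 and 15.8, 13.2 and 17.9 FPKM in WT. It was not called (log2 0.33, limma adjusted p = 0.11).

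The annotation of the authors' table puts all 10 genes under response to cold, a term held by 334 genes or 1.35% of the table. Of the 10, 7 were under response to water deprivation and 6 under response to abscisic acid (COR15A, COR15B, COR47, KIN1, KIN2 and LTI78). Of the 296 other tested genes annotated as responding to cold, 72 were higher in dcl1 (24.3%) and 49 were lower (16.6%). Over all genes tested the shares were 17.8% and 12.8%. The median log2 change of these 296 genes was 0.02. The median over the 10 members was 1.2.

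The genes that flank these loci gave a local comparison. No listed gene overlapped any of the 10. On the left of the CBF array, ABCB28 (AT4G25450, 1305 bases away) was lower in dcl1 at 9.76, 9.96 and 10.4 FPKM, against 14.7, 14.4 and 12.7 FPKM in WT (log2 -0.43, limma adjusted p = 0.0069). On its right, RS40 (AT4G25500, 1845 bases away), a splicing factor gene, was higher at 32.7, 29.1 and 41.0 FPKM, against 19.1, 18.1 and 21.8 FPKM in WT (log2 0.76, limma adjusted p = 0.0057). AT2G42520, on the opposite strand 88 bases left of the COR15 pair, was not called (log2 -0.11, 95% interval -0.36 to 0.13, limma adjusted p = 0.44). AT5G15950, left of the KIN pair, was not called (log2 0.84, limma adjusted p = 0.084). AT5G15980, right of that pair, was lower (log2 -0.34, limma adjusted p = 0.035), a call lost under several alternatives. CYP96A4, right of LTI78, and AT1G20430, left of COR47, were not called (log2 0.31 and -0.01, limma adjusted p of 0.103 and 0.93). AT2G42560, RD29B and AT1G09370, which also flank these loci, were not tested.

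None of the 3117 differential m6A peaks in the authors' deposited table overlapped any of the 10 genes. All of those peaks had an unadjusted p-value of at most 0.049. An m6A peak that did not differ between genotypes would therefore not be listed there. One peak was assigned to a member, GolS3, in the authors' deposited table. It covers 268 bases of chromosome 1 (3017967 to 3018234), was annotated as 3' UTR, and had a log2 change of 0.407 in dcl1 over WT with a p-value of 1e-100. Its position was 1585 bases before the start of GolS3. It lies within CRB (AT1G09340, 3015328 to 3018234), a chloroplast RNA-binding protein gene on the same strand, and ends on the last base of that gene. CRB was expressed at 438, 475 and 401 FPKM in dcl1, against 604, 650 and 547 FPKM in WT (log2 -0.46, limma adjusted p = 0.0085), far above the level of GolS3. Of 2975 peaks assigned to a gene of the expression table, 1175 (39.5%) did not overlap the gene to which they were assigned.

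**Figure D5:**
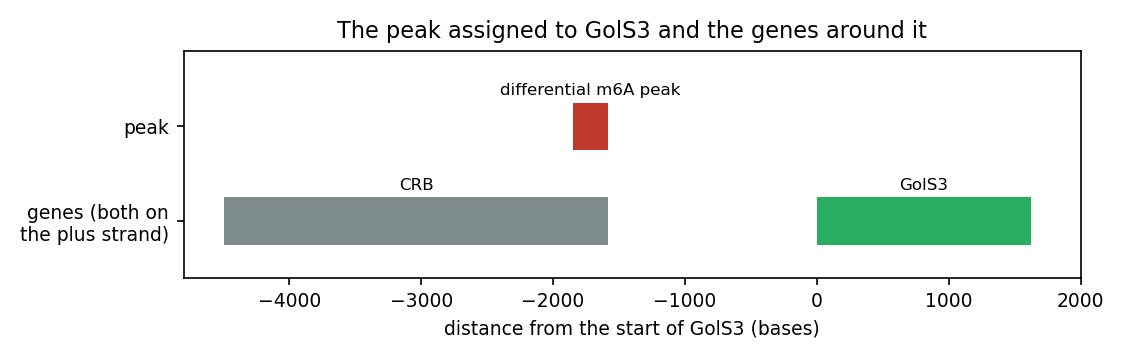
Map of the differential m6A peak that the authors' table assigns to GolS3, in bases from the start of GolS3; both genes are on the plus strand. The peak covers the last 268 bases of CRB and ends 1585 bases before GolS3.

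Among the other 61 pathway genes, 5 had an assigned peak in the authors' deposited table, where 11.5% of all genes did. The peaks of ERD7, CSP2 and PIF7 overlapped their genes, with log2 changes of -1.63, -0.291 and -0.232 in the authors' deposited table. ERD7 thus had a lower m6A peak value and a higher transcript level in dcl1. Whether the peak change was taken relative to input was not stated. The peaks assigned to LTI30 and EIN3 overlapped other genes, ZAR1 with PLP3a and TOP6B.

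The pattern of the 3 CBF genes over the 6 libraries was matched most closely by 5 genes outside the 10. These were AT1G14780 (a MAC/Perforin domain protein, r = 0.997), CRF6 (AT3G61630, a cytokinin response factor, r = 0.997), AT2G15220 (a secretory protein of the BSP family, r = 0.996), AT5G53880 (r = 0.996) and AGC2-1 (AT3G25250, a protein kinase, r = 0.995), by Pearson's correlation with the mean of the standardised CBF values. With 6 libraries of 2 genotypes such values mostly follow genotype, and 2227 of 17915 genes (12.4%) exceeded 0.9. CRF6 had 8.26, 7.61 and 10.7 FPKM in dcl1, against 2.42, 3.04 and 3.78 FPKM in WT, with replicate 3 highest in both genotypes as for CBF1 and CBF2. Within the 10 genes, r was 0.953 for COR15A, 0.963 for COR15B, 0.954 for KIN2, 0.897 for KIN1, 0.868 for COR47, -0.931 for LTI78 and -0.96 for GolS3.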

How the data were processed

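Input RNA-seq and m6A MeRIP-seq libraries came from 3 dcl1 and 3 WT replicates each. The TAIR10 build and the tools HISAT2, fastp, edgeR, StringTie, ChIPseeker and HOMER are named, with no version or role, per the submitters' processing notes. The authors deposited FPKM per gene for the 6 input libraries. The authors' deposited comparison gives a fold ratio of mean FPKM (dcl1 over WT), its log2 value, a p-value and a q-value, per the file headers. The authors' deposited peak table gives a log2 change, a p-value and a log10 FDR score for each differential m6A peak. No value of a single m6A immunoprecipitate was analysed here. No whole-read steps were found in the FPKM, which leaves sequencing depth unknown, and counting intervals are not given.

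limma 3.58.1 in R 4.3.3 (variance trend, two-sided, Benjamini-Hochberg over 17925 genes) was run on log2(FPKM + 1) for genes averaging 1 FPKM or more. It was tested first on simulated data, with changes placed only in genes averaging above 5 FPKM and with independent noise per library. That trial therefore did not cover changes at the levels of CBF1, CBF3, KIN1 and GolS3. The members, lists and comparisons were chosen with earlier results of these data known. Named were all 10 members, from each other list up to 3 called genes in each direction, by size of change, whose groups did not overlap, and the 5 genes most alike. ICE1, ICE2, RVE2, the dehydrins, GolS genes, clock genes, CBF4, DDF2 and flanking genes were named for their family, place or role, some after their values were seen. Symbols came from a RefSeq table (TAIR10.1), which matched all 10 members and lists CBF3 as DREB1A. Coordinates are 1-based on TAIR10, as deposited. How fragments of paralogs were counted, and whether by strand, is not stated.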

Additional observations from a re-analysis of the deposited data

How the results depend on the processing

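The direction of all 10 members' changes was the same under each of up to 15 alternatives (pseudocount 0.1 or 5 FPKM, other filters, quantile or median-ratio scaling, no variance trend, a replicate block, each library left out, and, chosen after seeing the data, both replicates 3 left out). The members called higher numbered 7 and were 4 among genes of at least 5 FPKM, where only 6 members were tested, and 5 to 8 with libraries left out. Those called lower numbered 2, and 1 at the 5 FPKM minimum or without WT replicate 1 or 3, since GolS3 then fell below the minimum. The KIN1 call was also lost with no filter on low FPKM (adjusted p = 0.059). Of the other pathway genes, 25 were called higher (20 to 25 with libraries left out) and 5 lower (3 to 8; 3 without dcl1 replicate 1, WT replicate 1 or WT replicate 2, and 8 without both replicates 3). Over all genes, 3189 were called higher and 2291 lower. With libraries left out the counts ranged from 1835 to 3605 and from 1247 to 2058, the lowest being 1979 and 1247 without WT replicate 1 and 1835 and 1370 without WT replicate 2. Quantile normalization gave 3716 lower calls, so that rises made up 40.0% of calls, against 58.2% with FPKM as deposited; the members' counts were 7 and 2 there too. Replicate numbers are shared between genotypes, but same-numbered libraries deviated together only weakly (r = 0.085, 0.0608 and 0.15), and not every library correlated best with its own number. With the replicate block, 8 members were higher and 2 lower, COR47 passing at adjusted p = 0.00997 and GolS2 at 0.0306, and 3054 and 2084 genes were called overall. The cause of these shifts was not tested. The number of libraries, 3 per genotype, limits the precision.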
